A study of Mus musculus with 6 samples.

Results

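The genes described here are 7 mouse regulators of acid and base: the carbonic anhydrases Car2, Car9, Car12 and Car14 and the bicarbonate transporters Slc4a2, Slc4a4 and Slc4a7. They were taken as a named list, with earlier results of these data known, and all 7 had counts among the 17068 genes measured. Bulk RNA-Seq was made from lateral cortex of 6 female c57/bl6 embryos at embryonic day 12.5, with 4 Cre-negative controls and 2 libraries labelled Foxp1cKO. The labelled genotype was Foxp1 fl/+ in controls 1, 2 and 4, Foxp1 fl/fl in control 3, and Foxp1 fl/fl;Emx1Cre in both libraries labelled Foxp1cKO. Every sample thus carried at least 1 floxed allele of Foxp1, which encodes a forkhead transcription factor. Cre driven by Emx1 acts in progenitors of the dorsal telencephalon and their descendants, and vessels and blood cells in the dissected tissue do not arise from them. The comparison asks which transcripts differ in the early cortex when Foxp1 is targeted in these progenitors.

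Carbonic anhydrases interconvert carbon dioxide and water with bicarbonate and a proton, and members of the SLC4 family carry the bicarbonate across membranes. Together they set the pH inside and outside a cell, and the membrane enzymes hydrate the carbon dioxide that actively metabolizing cells release. Car9 and Car12 are known for their induction by low oxygen in tumour cells, Car2 is abundant in red cells and in glia, and Slc4a4 and Slc4a7 bring bicarbonate into neural cells.

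Values are CPM, counts scaled to a common library size with edgeR's TMM factors, from totals of 50076008 to 78346979 counts per library. A gene was called when its p from the quasi-likelihood test of edgeR, adjusted by the Benjamini-Hochberg method over 17068 genes, was under 0.05. The study describes the 6 samples as females. The p-values set the difference between the groups against the spread between libraries within each group. Foxp1 itself was at 59.7, 60.8, 71.2 and 79.1 CPM in controls 1 to 4 and at 83.2 and 76.8 CPM in the libraries labelled Foxp1cKO (log2 fold change 0.24, standard error 0.129, edgeR adjusted p = 0.468). It was not lower in those libraries. Counts over the whole gene do not show whether the floxed exons were lost, so this value does not test the deletion, and each direction below rests on the labels. Marker levels differed among the controls: control 3 had the highest summed CPM of 6 ventral telencephalon markers and control 4 the highest of 10 red cell markers. Markers of the cortex were present in every library, with 7 cortical progenitor markers summing to 1986 to 2962 CPM in the controls and to 2396 and 2576 CPM in the libraries labelled Foxp1cKO.

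None of the 7 genes was called, and 6 of them had a higher estimate in the libraries labelled Foxp1cKO. Across all genes, 26 were called (0.152%), each of them higher in edgeR. The direction depended on the setting, since DESeq2 called 310 higher and 197 lower, edgeR without control 4 called 83 higher and 13 lower, and at an unadjusted p under 0.05 edgeR had 1115 higher and 1109 lower. At an unadjusted p under 0.05, 0 of the 7 passed in edgeR, in DESeq2 and in limma on the deposited VST values. Of all genes, 2224 (13.0%) passed in edgeR, and 7 genes are too few to set 0 apart from that share. In no member did both libraries labelled Foxp1cKO lie above all 4 controls, a pattern of 11.5% of all genes, or below all 4, a pattern of 13.1%. The median log2 fold change of the 7 was 0.22, beside -0.0044 over all genes. The 95% intervals of the log2 fold changes were as narrow as -0.05 to 0.30 for Slc4a7 and as wide as -0.39 to 2.17 for Car2.

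**Figure D1:**
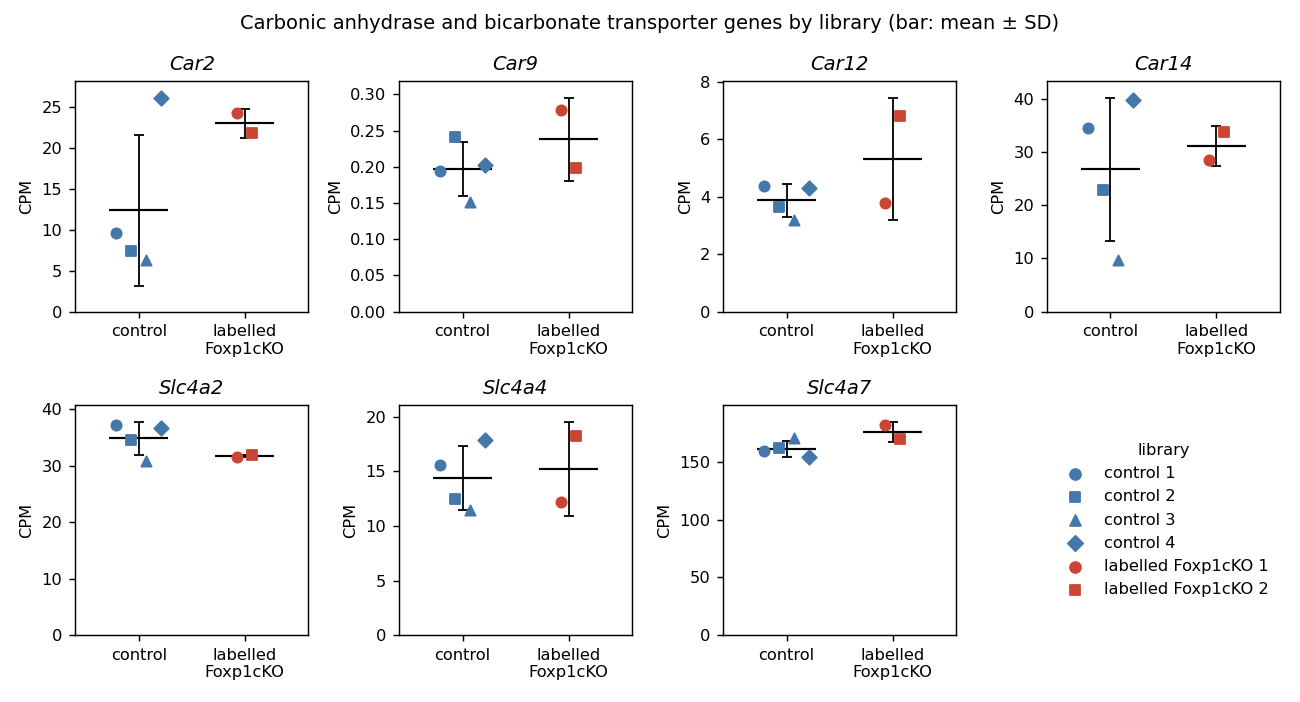
CPM (vertical axis of each panel, from 0) of the 7 genes in the 4 controls and the 2 libraries labelled Foxp1cKO; points are libraries, horizontal bars means and error bars SD. In every panel at least 1 library labelled Foxp1cKO lies within the range of the controls, and Car2 in control 4 (26.1 CPM) lies above both libraries labelled Foxp1cKO.

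Transcript levels were compared between genes as CPM per kilobase of merged exons. In the controls, Slc4a7 stood at 10.6 ± 0.451 (SD, n = 4), Car14 at 10.5 ± 5.26, Car2 at 5.12 ± 3.82 and Slc4a2 at 4.19 ± 0.352 on this scale. Slc4a4 followed at 1.33 ± 0.272, Car12 at 0.510 ± 0.0747 and Car9 at 0.0856 ± 0.0161. The lower end of this order was stable, since Slc4a2 exceeded Slc4a4, Slc4a4 exceeded Car12 and Car12 exceeded Car9 in 6 of 6 libraries, with ranges that did not overlap. At the upper end, Slc4a7 exceeded Car14 in 3 of 6 libraries and Car2 exceeded Slc4a2 in 3 of 6. By merged exons neither pair was thus separated beyond the spread of the libraries. Car14 exceeded Car2 in 6 of 6 libraries, although their ranges overlapped. When the longest transcript replaced merged exons, Slc4a2 ranked 3 and Car2 ranked 4, and coding length kept the order of merged exons. By coding length, however, the control means of Slc4a7 and Car14 stood further apart, at 47.5 and 26.4. The closeness of this pair thus depends on the length used.

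To show where the transcripts begin, promoters of the membrane enzymes were read from RefSeq (GRCm38.p6), from 250 bases before the start to 50 after it. Such entries were found for Car9, Car12, Car14, Slc4a2, Slc4a4 and Slc4a7, 8 promoters in all, and not for Car2. Each window was searched on both strands for ACGTG and GCGTG, the core letters bound by hypoxia-inducible factors, and for TGTTTAC and TATTTAC, core letters of forkhead factors. The promoters below are those of Car9 and Car14, which hold ACGTG, and of Car12, which holds none of the 4 motifs. They are written 5′ to 3′ on the strand of the gene, at chr4:43506776-43507075 (+) for Car9, chr3:95904636-95904935 (-) for Car14 and chr9:66713436-66713735 (+) for Car12. Capitals mark the motif letters, which here lie on the strand opposite to the gene and so read as their reverse complements.
Car9: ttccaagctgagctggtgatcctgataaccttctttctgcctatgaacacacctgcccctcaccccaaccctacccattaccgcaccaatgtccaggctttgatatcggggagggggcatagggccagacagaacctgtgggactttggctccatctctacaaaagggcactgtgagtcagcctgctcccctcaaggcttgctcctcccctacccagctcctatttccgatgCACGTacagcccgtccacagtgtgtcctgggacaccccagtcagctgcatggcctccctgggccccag
Car14: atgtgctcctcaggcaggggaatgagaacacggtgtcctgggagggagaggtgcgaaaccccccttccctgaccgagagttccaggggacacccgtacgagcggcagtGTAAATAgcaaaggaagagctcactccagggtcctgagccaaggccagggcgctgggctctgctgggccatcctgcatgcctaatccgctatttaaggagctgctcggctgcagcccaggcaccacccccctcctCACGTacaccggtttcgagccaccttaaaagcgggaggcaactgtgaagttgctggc
Car12: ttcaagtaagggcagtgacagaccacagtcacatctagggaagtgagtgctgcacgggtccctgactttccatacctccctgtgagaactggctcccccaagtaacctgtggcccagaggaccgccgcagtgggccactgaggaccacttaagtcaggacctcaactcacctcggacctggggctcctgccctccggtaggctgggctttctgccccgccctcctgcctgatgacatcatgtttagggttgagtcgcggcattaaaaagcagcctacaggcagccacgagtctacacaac
The ACGTG match began 18 bases before the start of Car9 and 7 bases before that of Car14, and 19.6% of 32851 RefSeq promoters hold the motif. The Car14 promoter also held TATTTAC 142 bases before the start, as 3.04% of promoters do. GCGTG, present in 32.4% of promoters, lay in 1 of the 2 promoters of Slc4a2 and 1 of the 2 of Slc4a4. TGTTTAC, present in 3.65% of promoters, was in none of the 8. The Slc4a7 window held none of the 4 motifs, but at chr14:14718534-14718833 it lies inside the gene, which begins at 14702279. Both Slc4a2 windows, from 24424982 and 24425594, also lie inside their gene, which begins at 24423837. Both Slc4a4 windows, from 88887010 and 89027716, lie inside theirs, which begins at 88886818. The upstream starts of Slc4a7, Slc4a2 and Slc4a4 were thus not searched. A match describes letters and is not a measured site.

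Car2 (ENSMUSG00000027562.12, GRCm38 chr3:14886273-14900770, plus strand) encodes carbonic anhydrase II, a fast cytosolic enzyme. It was at 9.64, 7.45, 6.35 and 26.1 CPM in controls 1 to 4 and at 24.3 and 21.8 CPM in the libraries labelled Foxp1cKO. Controls 1 to 3 lay below both libraries labelled Foxp1cKO, control 4 lay above both, and the groups overlapped. The means were 12.4 ± 9.26 CPM (SD, n = 4) and 23.1 ± 1.78 CPM (SD, n = 2), with a log2 fold change of 0.89 (standard error 0.542, 95% interval -0.39 to 2.17, edgeR adjusted p = 0.517). Control 4 decided the call, because without it the log2 fold change was 1.56 and the edgeR adjusted p was 0.0427. Against the controls taken singly, the mean of the libraries labelled Foxp1cKO was higher by 1.25, 1.62 and 1.85 on the log2 scale than controls 1, 2 and 3 and fell by 0.18 relative to control 4.

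Several genes of red cells moved across the libraries with Car2, but the red cell marker Hbb-bs did not. Its log2 fold change, -0.17, was the lowest of the 10 red cell markers. Over the 14360 genes with a mean of at least 50 counts, the 5 whose pattern was nearest to that of Car2 were Pdzk1ip1, Grap2, Nfe2, Mylk3 and Slc4a1, with root mean square differences of centred log2 CPM of 0.103, 0.103, 0.141, 0.150 and 0.152 over the 6 libraries. Slc4a1, the chloride-bicarbonate exchanger of the red cell membrane, was at 22.3, 15.1, 17.1 and 71.8 CPM in controls 1 to 4 and at 60.5 and 57.9 CPM in the libraries labelled Foxp1cKO. The ratio of Car2 to Slc4a1 CPM, chosen after their values were seen, stayed between 0.364 and 0.492 in the 6 libraries, while Car2 itself ranged over 6.35 to 26.1 CPM. Because Slc4a1 is among the 5 genes nearest to Car2 in pattern, this ratio restates that nearness and adds no support. All 10 red cell markers had counts in every library, and their summed level was 1473, 1115, 1167 and 3615 CPM in controls 1 to 4 and 3909 and 4200.5 CPM in the libraries labelled Foxp1cKO. Car2 amounted to 6.54, 6.68, 5.44 and 7.23 CPM per 1000 CPM of these markers in the controls and to 6.22 and 5.19 in the libraries labelled Foxp1cKO, so that the groups overlapped and control 4 was the highest of the 6. In the comparison of the groups, 0 of the 10 red cell markers were called in edgeR. DESeq2 called 1, Hba-a1, beside 507 of all 17068 genes. At an unadjusted p under 0.05, 3 of the 10 passed in edgeR, beside 13.0% of all genes. In DESeq2 3 passed and in limma 6, with no share of all genes from these tools given beside them. Both libraries labelled Foxp1cKO lay above all controls in 4 of the 10, beside 11.5% of all genes. Without control 4 edgeR called 6 of the 10, Slc4a1 among them, and 96 of all 17068 genes. The part of red cell RNA in the Car2 values was not tested, and in bulk tissue more cells of a type and more RNA per cell cannot be told apart.

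**Figure D2:**
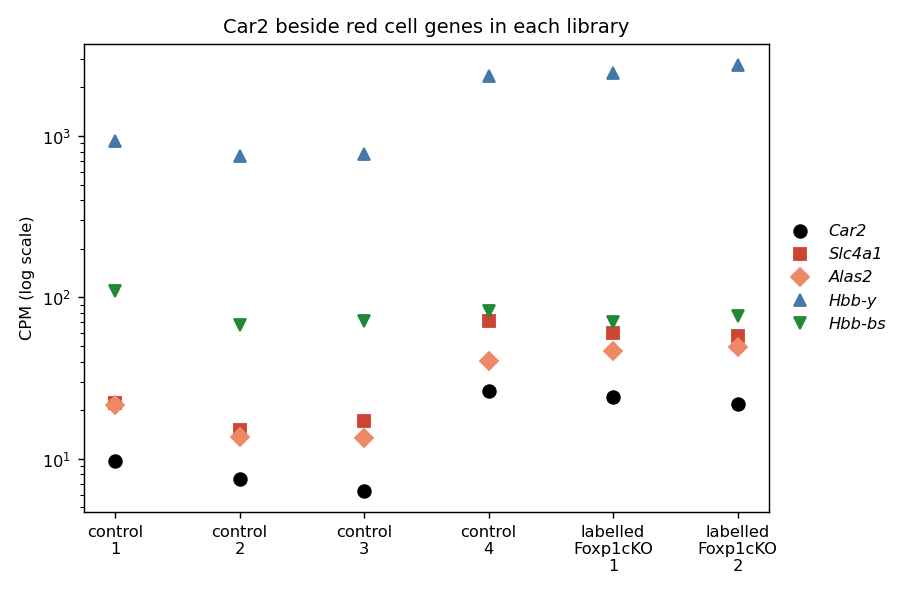
CPM on a log scale (vertical axis) of Car2 and 4 red cell genes in each of the 6 libraries (horizontal axis); each point is 1 library. Car2, Slc4a1, Alas2 and Hbb-y are high together in control 4 and in both libraries labelled Foxp1cKO, while Hbb-bs lies between 67.8 and 109 CPM throughout.

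Among the enzymes of the cell surface, Car14 (ENSMUSG00000038526.14, chr3:95897768-95904691, minus strand), a membrane-anchored enzyme with its active site outside the cell, was the most abundant. It was at 34.5, 22.9, 9.70 and 39.8 CPM in controls 1 to 4 and at 28.5 and 33.8 CPM in the libraries labelled Foxp1cKO. Both libraries labelled Foxp1cKO lay inside the range of the controls, which spanned 4.10-fold from control 3 to control 4. The means were 26.7 ± 13.4 CPM (SD, n = 4) and 31.2 ± 3.74 CPM (SD, n = 2), and the log2 fold change was 0.22 (standard error 0.481, 95% interval -0.91 to 1.36, edgeR adjusted p = 0.879). The sign depended on control 3, without which the log2 fold change was -0.067. A portion of 521 bases of the gene overlaps Aph1a on the opposite strand.

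Car14 was lowest in control 3, the library with the highest ventral markers and the only control labelled Foxp1 fl/fl. The 6 ventral telencephalon markers summed to 126, 203, 417 and 144 CPM in controls 1 to 4 and to 285 and 196 CPM in the libraries labelled Foxp1cKO, and Emx1, a gene of the dorsal telencephalon, was at 118, 108, 68.8 and 135 CPM in the controls and at 98.4 and 116 CPM in the libraries labelled Foxp1cKO. Control 3 was thus lowest of the 6 libraries in Car14 and in Emx1 and highest in the ventral sum. The other libraries did not keep this order. Foxp1cKO 1, with 285 CPM of ventral markers, had more Car14 (28.5 CPM) than control 2 (22.9 CPM, at 203 CPM). The part of the dissected region or of the genotype in the Car14 values was not tested. The 5 genes with a pattern nearest to Car14 were Tnfrsf19, Dmrt3, Oaf, Gm20472 and Igf1, at root mean square differences of 0.118, 0.119, 0.134, 0.141 and 0.169 over the 6 libraries. Tnfrsf19, for example, was at 180.4, 135, 57.5 and 239 CPM in the controls and at 169 and 164 CPM in the libraries labelled Foxp1cKO.

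Car12 (ENSMUSG00000032373.15, chr9:66713686-66766845, plus strand), another membrane-anchored enzyme that faces the extracellular space, was at 4.36, 3.64, 3.18 and 4.32 CPM in controls 1 to 4 and at 3.80 and 6.80 CPM in the libraries labelled Foxp1cKO. The library labelled Foxp1cKO 2 lay above every control, and Foxp1cKO 1 lay among them. The log2 fold change was 0.45 (standard error 0.269, 95% interval -0.18 to 1.09, edgeR adjusted p = 0.507). One library decided its direction, since the value was -0.046 without Foxp1cKO 2 and 0.81 without Foxp1cKO 1. Its nearest patterns were those of Vsir, Gpr157, Gng11, Gm9625 and Ecscr, at root mean square differences of 0.063 to 0.097. Each of these was also highest in Foxp1cKO 2, which follows from their being picked for likeness to Car12.

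Car9 (ENSMUSG00000028463.14, chr4:43506966-43513729, plus strand), the membrane enzyme best known as a readout of low oxygen in tumours, was sparsely counted. It received 12, 15, 11 and 16 reads in controls 1 to 4 and 14 and 15 reads in the libraries labelled Foxp1cKO, that is 0.194, 0.241, 0.151, 0.203, 0.278 and 0.198 CPM. Foxp1cKO 1 lay above every control and Foxp1cKO 2 among them. Counting error alone was wide, with exact 95% Poisson intervals of 5.49 to 19.7 around the 11 reads of control 3 and of 9.15 to 26.0 around the 16 reads of control 4, and because PCR copies of 1 molecule count as separate reads these intervals cover counting error only. The log2 fold change was 0.25 (standard error 0.358, 95% interval -0.59 to 1.10, edgeR adjusted p = 0.800), which bounds the fold at 0.664 to 2.14. The gene shares 1782 bases with Gm12454, an antisense gene at a mean of 0.241 CPM, and the strand setting of the counting is not given in the sources used here, so reads of the pair cannot be told apart. The 5 nearest patterns, Fcrls, Cfap54, Cfap300, 9130221H12Rik and Zyx, lay at root mean square differences of 0.088 to 0.107, and with so few Car9 reads this likeness is no finding.

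Genes known to be induced by low oxygen are set beside Car9 and Car12 for scale. Of 12 such genes, a list chosen with results of these samples known and so no independent evidence, 5 were called, all higher: Vegfa, the main angiogenic ligand, the pyruvate dehydrogenase kinase Pdk1, the mitophagy receptor Bnip3, the peptide adrenomedullin (Adm) and the collagen hydroxylase subunit P4ha1. Vegfa was at 71.0, 64.9, 71.7 and 71.3 CPM in controls 1 to 4 and at 231 and 267 CPM in the libraries labelled Foxp1cKO, without overlap, and its log2 fold change was 1.84 (95% interval 1.64 to 2.04, edgeR adjusted p = 0.00165). The glucose transporter gene Slc2a1, the oxygen-sensing hydroxylase gene Egln3 and Higd1a had edgeR adjusted p of 0.0758, 0.0758 and 0.0645, and Ndrg1 had the lowest estimate, -0.33. The median log2 fold change of the 12 was 1.38, and 11 of them had both libraries labelled Foxp1cKO above all controls, beside 11.5% of all genes. DESeq2 called 11 of the 12, and edgeR without control 4 called 9. Over all 17068 genes, the calls were 26 in edgeR, 507 in DESeq2 and 96 in edgeR without control 4. The intervals of Car9 (upper bound 1.10) and Car12 (1.09) lay below that of Vegfa, the narrowest of the list, and overlapped those of 7 of the 12, among them Slc2a1 (lower bound 0.87), Ldha (0.74) and Higd1a (0.67). The differences between these genes' fold changes were not tested.

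**Figure D3:**
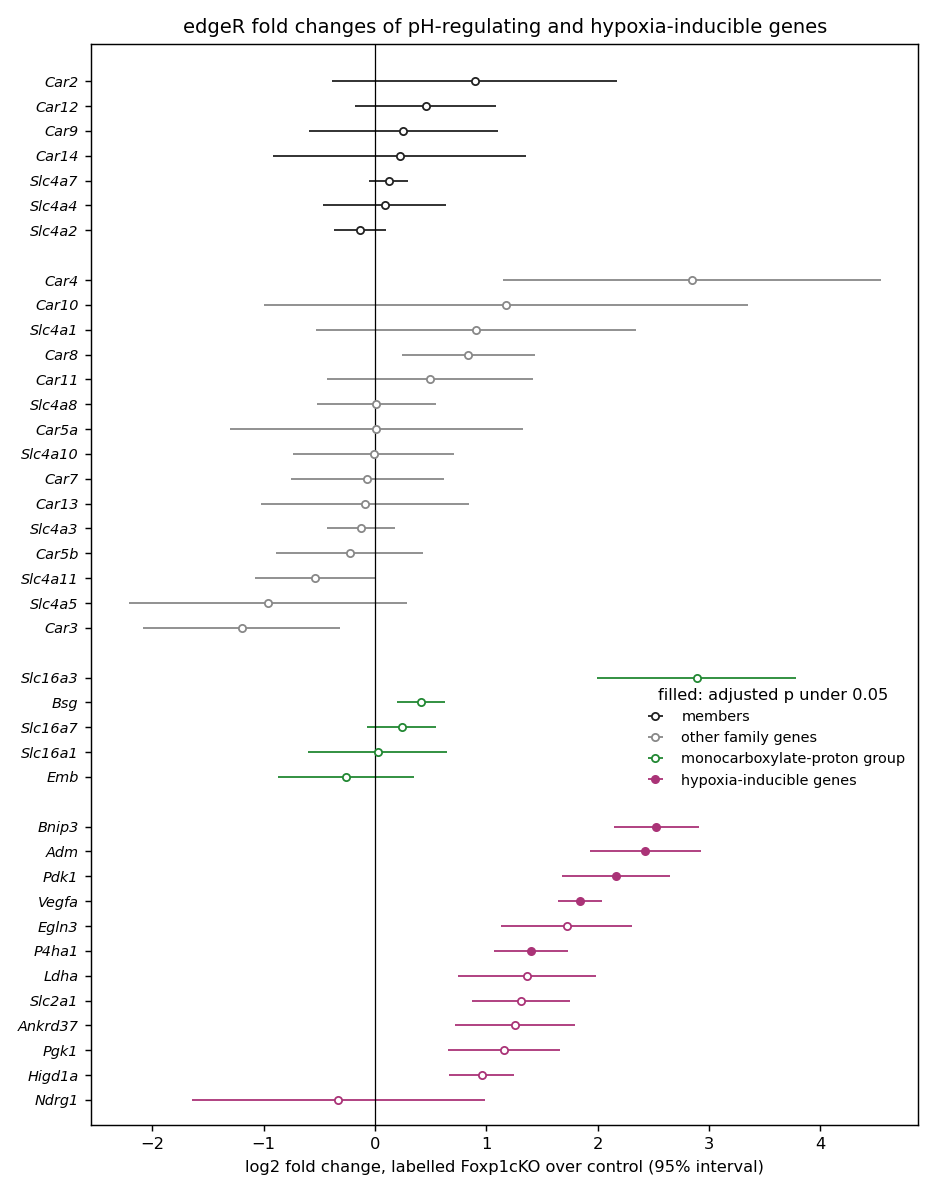
Log2 fold change of libraries labelled Foxp1cKO over controls (horizontal axis) with 95% intervals from edgeR, for the 7 members, other carbonic anhydrase and SLC4 genes, the monocarboxylate-proton group and 12 hypoxia-inducible genes. Filled points passed an adjusted p of 0.05, which 5 hypoxia-inducible genes and 0 of the 7 members did; every member interval includes 0.

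Slc4a2 (ENSMUSG00000028962.14, chr5:24423837-24440950, plus strand), or AE2, exchanges chloride for bicarbonate and unloads base from cells. It was at 37.3, 34.6, 30.8 and 36.7 CPM in controls 1 to 4 and at 31.6 and 31.9 CPM in the libraries labelled Foxp1cKO. Both libraries labelled Foxp1cKO lay below controls 1, 2 and 4 and above control 3, so the groups overlapped. The log2 fold change was -0.14 (standard error 0.10, 95% interval -0.37 to 0.10, edgeR adjusted p = 0.591), the only negative estimate among the 7, and it was -0.20 without control 3, where it passed at an unadjusted p under 0.05. A stretch of 2511 bases is shared with Fastk on the opposite strand, which was at a mean of 48.7 CPM.

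Slc4a7 (ENSMUSG00000021733.10, chr14:14702279-14799940, plus strand), or NBCn1, loads sodium and bicarbonate into cells without net charge. It was at 159, 161, 170.1 and 154 CPM in controls 1 to 4 and at 182 and 169 CPM in the libraries labelled Foxp1cKO. Foxp1cKO 1 lay above every control and Foxp1cKO 2 lay just under control 3. The means were 161 ± 6.86 CPM (SD, n = 4) and 176 ± 8.69 CPM (SD, n = 2), with a log2 fold change of 0.12 (standard error 0.0744, 95% interval -0.05 to 0.30, edgeR adjusted p = 0.509). This was the most tightly bounded of the 7, with a fold between 0.965 and 1.23.

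Slc4a4 (ENSMUSG00000060961.14, chr5:88886818-89239653, plus strand), or NBCe1, carries bicarbonate with sodium and moves net charge. It was at 15.6, 12.4, 11.5 and 17.9 CPM in controls 1 to 4 and at 12.2 and 18.3 CPM in the libraries labelled Foxp1cKO. The libraries labelled Foxp1cKO took opposite ends of the control range, Foxp1cKO 2 lying above all controls. The log2 fold change was 0.085 (standard error 0.235, 95% interval -0.47 to 0.64, edgeR adjusted p = 0.907), and its sign turned without control 3 (-0.020) and without Foxp1cKO 2 (-0.25). The nearest patterns were those of N4bp3, Lrrk2, Rpsa-ps10, Rpl3-ps1 and Kcnj5, at root mean square differences of 0.040 to 0.072.

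The carbonic anhydrase family was then summed per kilobase of merged exons by where the proteins reside. The 13 family genes with counts summed to 24.4, 19.9, 18.4 and 33.2 CPM per kilobase in controls 1 to 4 and to 32.9 and 35.3 in the libraries labelled Foxp1cKO, which overlapped through control 4. Membrane-bound or secreted enzymes made up 58.9%, 49.4%, 24.6% and 49.3% of the sum in the controls and 42.6% and 41.4% in the libraries labelled Foxp1cKO, most of it Car14, whose own share was 20.8% to 55.7% in the controls. Cytosolic enzymes, mostly Car2, made up 20.7%, 21.4%, 19.6% and 37.1% in the controls and 33.9% and 28.1% in the libraries labelled Foxp1cKO. In control 3, where Car14 was lowest, the carbonic anhydrase-related proteins Car8, Car10 and Car11, which lack enzyme activity, held 54.4% of the sum, against 12.6% in control 4.

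**Figure D4:**
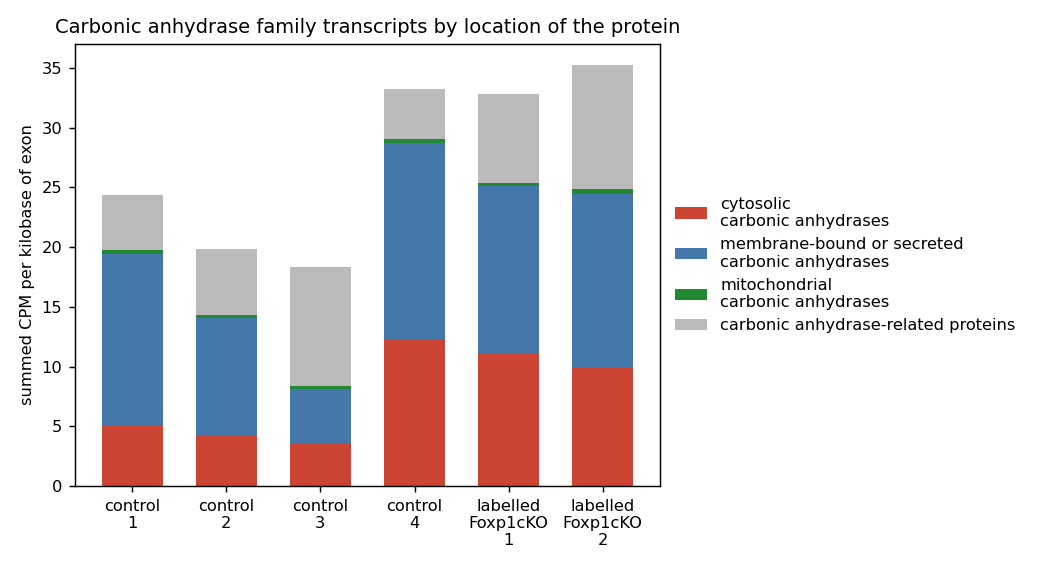
Summed CPM per kilobase of exon (vertical axis, from 0) of 13 carbonic anhydrase family genes in each library, stacked by the place of the protein. Totals run from 18.4 in control 3 to 35.3 in the library labelled Foxp1cKO 2, and control 4 (33.2) lies with the libraries labelled Foxp1cKO.

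Beyond the members, 91 genes of acid and base regulation were listed, the 7 included, and 74 of them had counts in the table used here. In edgeR 0 of the 74 were called, and 9 had an unadjusted p under 0.05, 6 of them higher and 3 lower, beside 13.0% of all genes. DESeq2 called 4, with Car4, Slc16a3 and Bsg higher and Atp6v0a2 lower, and limma on the VST values called Slc16a3. Over all 17068 genes DESeq2 called 507 and limma 27. Both libraries labelled Foxp1cKO lay above all controls in 9 of the 74, beside 11.5% of all genes, and below all controls in 6, beside 13.1%. The shares at an unadjusted p in edgeR and without overlap were near or below those of all genes. The shares called by DESeq2 and limma were above those of all genes, on only 4 and 1 genes. The median log2 fold change of the 74 was 0.038, beside -0.0044 over all genes.

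Other carbonic anhydrases at an unadjusted p under 0.05 were Car3, Car4 and Car8. Car4, an enzyme tethered to the cell surface by a lipid anchor, was at 0.274, 0.451, 0.425 and 0.178 CPM in controls 1 to 4 and at 4.23 and 0.580 CPM in the libraries labelled Foxp1cKO. Its groups did not overlap, but Foxp1cKO 1 carried most of the log2 fold change of 2.84 (standard error 0.719, edgeR adjusted p = 0.246). Car3, a cytosolic enzyme abundant in muscle, was at 0.546 to 0.919 CPM in the controls and at 0.378 and 0.237 CPM in the libraries labelled Foxp1cKO (log2 fold change -1.20, edgeR adjusted p = 0.292). Car8 was at 1.69 to 2.68 CPM in the controls and at 4.11 and 3.28 CPM in the libraries labelled Foxp1cKO (log2 fold change 0.84, edgeR adjusted p = 0.289). The related genes Car10 and Car11 had log2 fold changes of 1.17 and 0.49, with overlap between the groups. The mitochondrial enzymes Car5a and Car5b were each at 1.12 CPM or less in every library, with log2 fold changes of 0.01 and -0.23.

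In the SLC4 family, Slc4a8, a sodium-driven chloride-bicarbonate exchanger of neurons, had a log2 fold change of 0.01 (95% interval -0.52 to 0.55) and Slc4a10, of the same kind, one of -0.01 (-0.74 to 0.71). Slc4a5 and Slc4a11 were lower in both libraries labelled Foxp1cKO than in all controls, at log2 fold changes of -0.96 and -0.54 and edgeR adjusted p of 0.477 and 0.385. Across 8 sodium-proton exchangers with counts, 0 were called and 0 passed at an unadjusted p.

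The monocarboxylate group holds transporters that carry protons together with lactate, and their chaperones. Slc16a3, or MCT4, the lactate exporter of glycolytic cells, was at 10.04, 10.2, 8.08 and 20.9 CPM in controls 1 to 4 and at 69.9 and 113 CPM in the libraries labelled Foxp1cKO, without overlap (log2 fold change 2.89, standard error 0.377, edgeR adjusted p = 0.0658). Its chaperone Bsg was at 126 to 146 CPM in the controls and at 171 and 192 CPM in the libraries labelled Foxp1cKO (log2 fold change 0.41, edgeR adjusted p = 0.242). Slc16a1, or MCT1, overlapped between the groups, at a log2 fold change of 0.02 (95% interval -0.60 to 0.65). The interval of Slc16a3 (2.00 to 3.78) lay above the upper bound of 6 of the 7 members and overlapped that of Car2.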

How the data were processed

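Bulk RNA-Seq was analysed from 6 libraries, 4 controls and 2 labelled Foxp1cKO, grouped by their labels. The authors made stranded libraries, mapped paired-end reads with STAR (mm10), obtained union gene counts with HTSeq 0.9.1 and dropped genes of low expression, with FastQC 0.11.9, R 4.0.3 and DESeq2 1.30.1 also named in the submitters' processing notes. The strand setting of the counting is not given in the sources used here. The deposited counts are whole and unnormalized, and the deposited VST values are on a log2-like scale. The authors' model also held the litter, which was not used here.

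In R 4.3.3, counts of all 17068 genes were fitted with edgeR 4.0.16 (TMM, quasi-likelihood test, group alone, Benjamini-Hochberg adjustment). CPM are TMM-scaled, and centred log2 CPM used a prior count of 2. Alternatives were DESeq2 1.42.0, limma 3.58.1 on the VST values, total counts, DESeq2 size factors, 2 filters on low counts, a robust fit, each library left out and the replicate block. The crossed block, which pairs control 1 with Foxp1cKO 2 and control 2 with Foxp1cKO 1, was added after the data were seen. Scripts were tested on simulated data. Totals ran from 50076008 to 78346979 counts. Pairs of controls had a chi-square per gene of 25.9 to 193 and the pair labelled Foxp1cKO 31.4, far above counting noise, so each library counted as 1 replicate. Positions and lengths came from GENCODE M21 (GRCm38), in which 15605 identifiers matched with their version, 1442 without it and 21 not. That release is not the one the authors used. Promoters came from RefSeq, and proteins were not compared.

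The members and lists were chosen with earlier results of these data known. Named are the members, Foxp1, in each list the genes past the threshold, at adjusted p under 0.1 or with the highest or lowest fold change, and the 5 genes nearest in pattern to members spanning over 0.5 in log2 CPM. Other genes, such as Slc4a8, Slc4a10, Slc16a1, Car8, Bsg, Hbb-bs, Alas2, Hbb-y, Emx1 and Gpr4, were chosen from the lists after their values were seen. A gene of the lists is not reported here.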

Additional observations from a re-analysis of the deposited data

Results flagged for a closer look

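Among 44 values examined over the 4 controls, 8 had a highest or lowest control whose gap to its neighbour divided by the whole range exceeded Dixon's 95% critical value for 4 samples, which chance exceeds in about 1 of 20 groups. Several of these values share a library and are not independent of each other.

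Control 4 was the high one for Car2 (gap ratio 0.834), Slc4a1 (0.874), Slc16a3 (0.835) and the summed red cell markers (0.857). Slc16a3 in control 4 was at 20.9 CPM against 8.08 to 10.2 CPM in the other controls, still below both libraries labelled Foxp1cKO. Control 4 was the low one for Chp1, a partner of sodium-proton exchangers, at 69.6 CPM against 80.3 to 80.9 CPM (0.951), and the libraries labelled Foxp1cKO were at 67.1 and 70.6 CPM.

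Control 3 was the high one for Car11, a carbonic anhydrase-related protein, at 17.2 CPM against 7.11 to 8.84 CPM (0.830), and for the acid-sensing ion channel gene Asic4, at 0.933 CPM against 0.113 to 0.193 CPM (0.902). Control 2 was the low one for Vegfa, at 64.9 CPM against 71.0 to 71.7 CPM (0.903). The part of tissue composition in these values was not tested.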

How the results depend on the processing

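The number of genes called was 26. DESeq2 called 507 and the crossed replicate block 1301 (842 higher and 459 lower), whereas the other scalings, limma, the filters and the robust fit gave 23 to 27. Leaving out single libraries gave 2 (without control 2) to 96 (without control 4) genes, with 6 without control 1, 9 without Foxp1cKO 1 and 3 without Foxp1cKO 2. The cause of these shifts was not tested. The number of members called was 0 in the comparison as reported and 0 to 1 with single libraries left out. It was 1, Car2, without control 4 and 1, again Car2, with the crossed block, which also called 11 of the 12 hypoxia-inducible genes. The crossed pairing is arbitrary and leaves control 4 without a partner, so its call of Car2 adds no separate support.

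Over single libraries left out, the log2 fold change of Car2 ran from 0.67 to 1.56 (the latter without control 4), of Car12 from -0.046 (without Foxp1cKO 2) to 0.81, of Car14 from -0.067 (without control 3) to 0.48, and of Slc4a4 from -0.25 (without Foxp1cKO 2) to 0.35, with -0.020 without control 3. Car9, Slc4a2 and Slc4a7 kept their sign under every alternative run, 14 each and 13 for Car9, which the filter at a mean of 100 counts removed.

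The replicate block pairs libraries 1 and 2 of each group by number. Controls 3 and 4 have no partner in it, so its group difference rests on controls 1 and 2 against the 2 libraries labelled Foxp1cKO. Values from the block thus leave out control 4. The deviations of libraries with the same number correlated at -0.117, and the numbers are only shared. With the block 0 genes were called, the hypoxia-inducible genes included, with 3027 at an unadjusted p under 0.05, and Car2 had a log2 fold change of 1.44 (edgeR adjusted p = 0.145). With a mean of at least 100 counts, the list medians became 0.42 for cytosolic carbonic anhydrases, 0.31 for acid-sensing genes and -0.37 for choroid plexus markers.

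Every comparison rests on only 2 libraries labelled Foxp1cKO, and intervals for Car2, Car9, Car12 and Car14 include changes over 2-fold. Depth limits only Car9 among the members.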

Other observations

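Among acid-sensing receptors and channels, all 7 genes with counts had positive log2 fold changes, with a median of 0.49, and 0 were called in edgeR. The proton-sensing receptor Gpr4 was at 2.16, 2.03, 2.18 and 1.80 CPM in controls 1 to 4 and at 2.88 and 2.85 CPM in the libraries labelled Foxp1cKO, without overlap (edgeR adjusted p = 0.354). Asic4, with a log2 fold change of 1.62, overlapped between the groups, and Gpr65 had the lowest value of the list, 0.23.

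Of 20 vacuolar proton pump genes with counts, 9 had positive and 11 negative estimates, with a median of -0.0022. Atp6v0a2, a membrane subunit of the pump, was at 82.1, 73.5, 79.5 and 71.9 CPM in controls 1 to 4 and at 61.1 and 55.1 CPM in the libraries labelled Foxp1cKO, without overlap (log2 fold change -0.40, edgeR adjusted p = 0.242). Atp6v1c2 had the highest estimate, 0.51, at 0.435 CPM or less in every library.

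In the SLC26 anion exchangers, Slc26a7 had the lowest estimate, -1.44, with 1.52 to 5.09 CPM in the controls and 1.09 and 0.936 CPM in the libraries labelled Foxp1cKO (edgeR adjusted p = 0.332), and Slc26a10 the highest, 0.59. Among sodium-proton exchangers the estimates ran from -0.13 for Slc9a7 to 0.60 for Slc9b1, among monocarboxylate genes the lowest was -0.26 for Emb, and among transporter partners they ran from -0.18 for Chp1 to 0.29 for Chp2.

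Markers of other cells were given by their summed CPM. Endothelial markers summed to 136 to 210 CPM in the controls and 162 and 201 CPM in the libraries labelled Foxp1cKO, mural and meningeal markers to 140 to 614 and 224 and 413 CPM, and microglia and macrophage markers to 21.2 to 32.1 and 31.6 and 30.6 CPM. Cortical neuron markers summed to 972 to 1783 CPM in the controls and to 1139 and 1441 CPM in the libraries labelled Foxp1cKO. The 2 of 5 choroid plexus markers with counts, Aqp1 and Clic6, summed to 0.988 to 4.67 CPM in the controls and 1.37 and 2.06 CPM in the libraries labelled Foxp1cKO.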
